A study of Homo sapiens with 16 samples.

Results

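The data concern 45 genes of the Hippo pathway, of 35810 genes in the tables. They were chosen by a list of names: 31 pathway parts (the co-activators YAP1 and WWTR1, the TEAD and VGLL factors, kinases, scaffolds and YAP-binding proteins) and 14 target genes of YAP and TEAD outside the CCN family. All 45 passed the filter on low counts, which left 16705 genes. To follow these genes after loss of filamentous actin, RNA was sequenced from 16 libraries of pancreatic progenitors differentiated from the human embryonic stem cell reporter line NGN3-GFP, made from the line SA121, in which GFP marks NEUROG3 expression. Latrunculin B, which depolymerises actin, was given at 0.5 µM from day 19 of the differentiation and cells were harvested after 3 h (n = 3), 6 h (n = 3), 12 h (n = 2) or 24 h (n = 3). The controls were control 0 h (n = 3) and control 24 h (n = 2, DMSO). The labels tag control 0 h as DMSO while the series text places its harvest ahead of treatment, so its exposure to the vehicle is uncertain. All groups come from 1 reporter line, and the labels do not say whether replicates were separate cultures, so p-values measure the spread between these libraries.

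The libraries held 23609727 to 33515398 estimated reads. The progenitor factors PDX1 (336 ± 12.2 CPM, reads scaled to library size, SD, n = 3), SOX9 (421 ± 17.8 CPM) and NKX6-1 (107 ± 6.07 CPM) were present in control 0 h, and the multipotent and acinar markers PTF1A and CPA1 were low, at most 0.732 CPM and 5.25 CPM in any library. One library stood apart. In replicate 2 of latrunculin B 12 h the summed level of 8 mesenchymal markers was 870 CPM, against 159 CPM in replicate 1 and 68.5 to 213 CPM in the other groups, and 7 of the 8 were higher there than in every library of the other groups. Calls at 12 h that were lost or made without that library are therefore given as well. Replicate 1 of latrunculin B 24 h also had higher mesenchymal (213 CPM), endothelial (16.6 CPM) and hepatic (838 CPM) sums than any other library outside 12 h. In bulk RNA, fewer cells of a type and less RNA per cell cannot be told apart.

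The Hippo pathway is a kinase cascade. The kinases STK3 and STK4 (MST2 and MST1), with the scaffold SAV1, activate LATS1 and LATS2, which work with MOB1A or MOB1B and phosphorylate YAP1 and WWTR1 (TAZ), so that these co-activators stay out of the nucleus. Unphosphorylated YAP1 and WWTR1 enter the nucleus and switch on genes through the DNA-binding TEAD factors. Tension in actin fibres favours nuclear YAP1, and in the pancreas YAP1 is present in progenitors and low in endocrine cells. The measurements here are of RNA and carry no information on phosphorylation or location of the proteins.

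Against control 0 h, 22 of the 45 genes (48.9%) were called at 3 h by edgeR's quasi-likelihood test at an adjusted p under 0.05, 8 higher and 14 lower, where 31.6% of all genes tested were called. At 6 h, 35 genes (77.8%) were called, 15 higher and 20 lower, against 43.3% of all genes. At 12 h, 31 genes (68.9%) were called, 10 higher and 21 lower, against 35.8% of all genes. At 24 h, compared with control 24 h, 27 genes (60%) were called, 5 higher and 22 lower, against 40.8% of all genes. The comparisons at 3, 6 and 12 h share the 3 libraries of control 0 h. No control was harvested at these times, so the drug cannot be told apart from time or handling there. Beside these counts, the summed level of the pluripotency markers POU5F1, NANOG and LIN28A was 202 to 262 CPM in the drug libraries and 386 to 432 CPM in the controls. LIN28A made up nearly all of that sum, since POU5F1 was at most 2.14 and NANOG at most 0.871 CPM in any library, and their part in the results was not tested. Between control 24 h and control 0 h, 0 of the 45 genes were called by edgeR, DESeq2 or limma-trend, 4 had an unadjusted p under 0.05 in edgeR, and 0.251% of all genes were called.

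Lower calls at all 4 times were found for 6 pathway parts (WWTR1, TEAD3, TEAD4, LATS2, AMOTL2 and AJUBA) and 4 targets (ANKRD1, ARHGEF17, NUAK2 and DLC1). IGFBP3 alone was called higher at all 4 times. Of all genes tested, 14.7%, 20.4%, 16.8% and 18.8% were called lower at 3, 6, 12 and 24 h. The shares called higher were 16.8%, 22.9%, 19.1% and 21.9%. How many of all genes were called in the same direction at all 4 times was not counted. No call was made at any time for SAV1, FAT4, AMOT and AXL, though at 12 h FAT4, AMOT and AXL were called when 1 of the 2 drug libraries was left out.

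**Figure D1:**
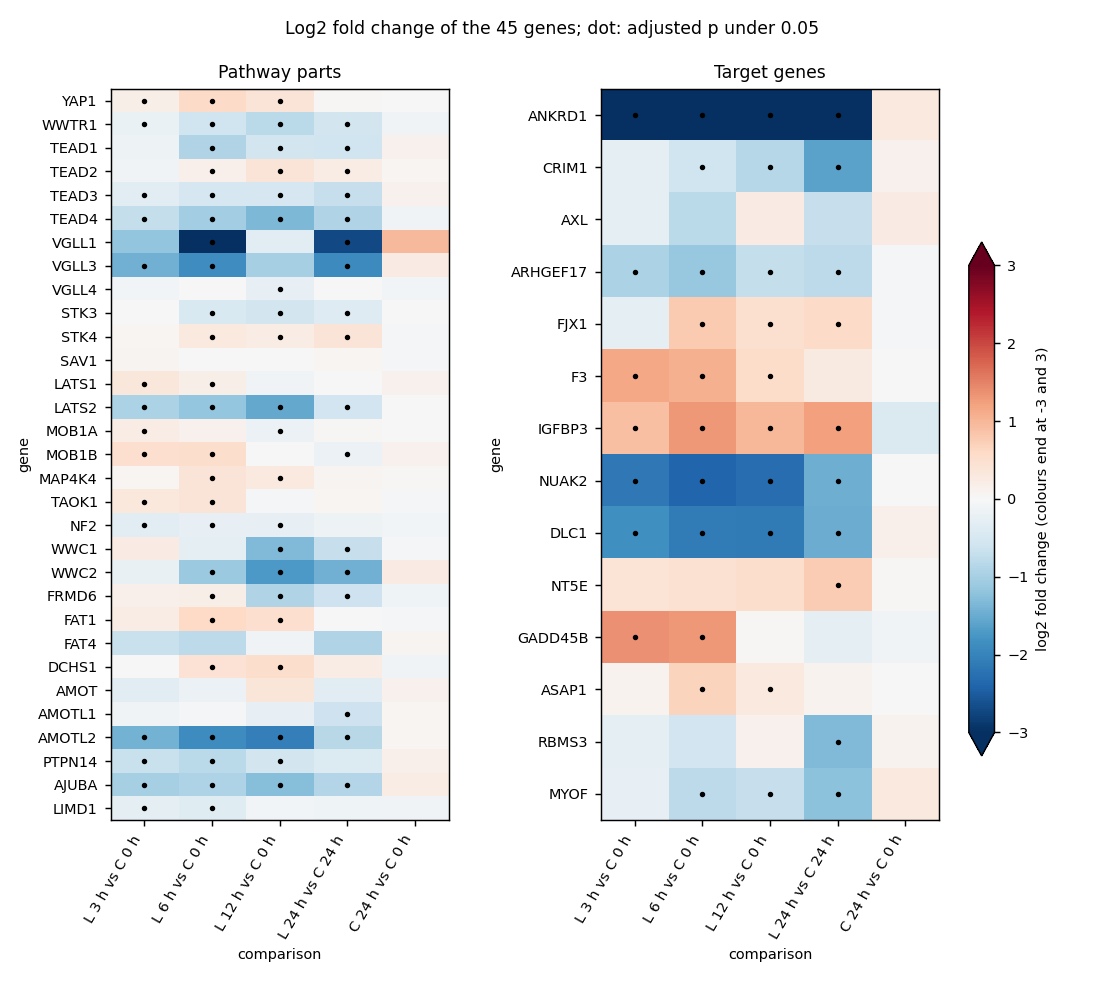
Log2 fold change of each of the 45 genes (vertical axis, pathway parts left and target genes right) in 5 comparisons (horizontal axis, L latrunculin B, C control), with a dot where the adjusted p was under 0.05; colours end at -3 and 3. ANKRD1, NUAK2 and AMOTL2 are blue with dots in the 4 drug comparisons, IGFBP3 is red with dots in the same 4, and the column of the controls holds no dot.

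To show the sequence around the starts of genes whose levels are described next, the 250 bases ahead of the annotated start are given for 4 genes, taken from RefSeq (GRCh38.p14), each read 5′ to 3′ on the gene's strand. ANKRD1 and NUAK2 were targets that fell early, PTPN14 a pathway part that fell, and IGFBP3 the target that rose throughout. Capitals mark the TEAD core motif GGAATG or its reverse complement CATTCC, and in ANKRD1 also 1 match to the AP-1 motif TGANTCA. The windows are chr10:90921088-90921337 for ANKRD1, chr1:205321746-205321995 for NUAK2, chr1:214551603-214551852 for PTPN14 and chr7:45921273-45921522 for IGFBP3, all on the minus strand, and they overlap no annotated exon. The IGFBP3 and PTPN14 windows lie within the longer spans that GENCODE gives these genes.
ANKRD1: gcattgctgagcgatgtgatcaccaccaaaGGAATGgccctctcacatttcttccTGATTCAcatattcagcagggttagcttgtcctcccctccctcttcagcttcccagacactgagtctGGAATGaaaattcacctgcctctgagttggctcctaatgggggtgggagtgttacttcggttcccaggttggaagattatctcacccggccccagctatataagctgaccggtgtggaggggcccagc
NUAK2: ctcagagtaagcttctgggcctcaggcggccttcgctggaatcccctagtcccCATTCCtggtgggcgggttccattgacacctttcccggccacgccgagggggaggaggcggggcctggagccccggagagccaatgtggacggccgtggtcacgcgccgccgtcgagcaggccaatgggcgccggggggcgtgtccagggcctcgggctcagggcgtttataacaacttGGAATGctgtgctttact
PTPN14: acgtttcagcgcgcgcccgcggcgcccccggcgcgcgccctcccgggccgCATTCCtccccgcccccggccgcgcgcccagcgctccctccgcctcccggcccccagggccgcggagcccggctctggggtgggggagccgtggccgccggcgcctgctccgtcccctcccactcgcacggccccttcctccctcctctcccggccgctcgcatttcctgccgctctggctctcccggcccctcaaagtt
IGFBP3: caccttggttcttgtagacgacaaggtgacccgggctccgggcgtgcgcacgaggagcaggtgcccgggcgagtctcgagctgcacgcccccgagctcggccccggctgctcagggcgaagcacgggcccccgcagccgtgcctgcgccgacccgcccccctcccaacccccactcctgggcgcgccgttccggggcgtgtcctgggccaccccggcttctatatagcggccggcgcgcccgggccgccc
Both ANKRD1 and NUAK2 held the core more than once: in ANKRD1 it began 220 and 128 bases ahead of the start, and in NUAK2 197 and 18 bases ahead. In PTPN14 it began 200 bases ahead, and the IGFBP3 window held neither motif. Searched over the 300 bases from 250 ahead of to 50 after each start, on both strands, the core was found in 10 of the 35 genes of the list that had a window (28.6%), and in 16.7% of 27305 genes. Of the 7 windowed genes that were lower at all 4 times it was found in 5 (AJUBA, AMOTL2, ANKRD1, LATS2 and NUAK2), and of the 12 that were higher at 1 time or more and lower at none it was found in 1 (YAP1). These sets were formed by the calls in these data, and a gene counted if any of its windows held the core. In AJUBA and AMOTL2 the match lay in a window inside the GENCODE span of the gene, which overlaps the gene's own exons. In LATS2 the match began 9 bases after the start. The AP-1 motif was found in 4 of 35 (ANKRD1, F3, LATS1 and MOB1B), against 9.37% of all genes, and the SRF motif known as the CArG box in 0 of 35, against 1.60% of all. A match is a description of the letters and not of binding.

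Among the targets, ANKRD1 had the largest log2 fold change in size at each time. ANKRD1 (chr10:90912096-90921087, minus strand) encodes an ankyrin repeat protein that shuttles between the nucleus and the contractile apparatus of muscle cells. Its level was 264, 293 and 279 CPM in the libraries of control 0 h, 25.9, 26.9 and 19.6 CPM at 3 h, 11.4, 11.8 and 11.2 CPM at 6 h, 4.77 and 6.49 CPM at 12 h and 24.5, 8.84 and 21.1 CPM at 24 h, against 325 and 355 CPM in control 24 h. Every drug library lay below every control library, and 1 of the 24 h libraries stayed near the 6 h level while the other two were near the 3 h level. ANKRD1 had log2 fold changes of -3.53 (SE 0.26, adjusted p 6.21e-07) at 3 h and -4.60 (SE 0.28, adjusted p 8.92e-08) at 6 h. At 12 h ANKRD1 gave -5.61 (SE 0.36, adjusted p 2.69e-07) and at 24 h -4.23 (SE 0.28, adjusted p 4.38e-07), and the level was lower 11.5-fold at 3 h, 24.2-fold at 6 h, 48.9-fold at 12 h and 18.8-fold at 24 h. NUAK2 (chr1:205302063-205321745, minus strand), a kinase related to AMPK that acts on myosin and actin fibres, was at 47.1, 56.7 and 52.3 CPM in control 0 h, 12.6, 11.4 and 11.3 CPM at 3 h, 11.5, 8.78 and 9.74 CPM at 6 h and 9.71 and 11.7 CPM at 12 h. At 24 h it was at 22, 14.1 and 20.3 CPM, against 51.1 and 52.7 CPM in control 24 h. No drug library reached a control library. NUAK2 had log2 fold changes of -2.15 (SE 0.15, adjusted p 4.06e-07) at 3 h and -2.38 (SE 0.15, adjusted p 1.27e-07) at 6 h. At 12 h NUAK2 gave -2.28 (SE 0.17, adjusted p 9.98e-07) and at 24 h -1.47 (SE 0.15, adjusted p 1.28e-05), and its level was lower 4.42-fold at 3 h, 5.2-fold at 6 h, 4.85-fold at 12 h and 2.77-fold at 24 h.

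The targets ARHGEF17 and DLC1 also fell at every time. ARHGEF17 was at 107, 123 and 119 CPM in control 0 h and 66.2, 60.5 and 55 CPM at 3 h, and at 24 h at 72.8, 65.1 and 62.4 CPM against 113 and 116 CPM, with no drug library as high as a control library. For ARHGEF17 the log2 fold changes were -0.94 (SE 0.08, adjusted p 1.51e-06) at 3 h and -1.14 (SE 0.08, adjusted p 2.47e-07) at 6 h. At 12 h ARHGEF17 gave -0.72 (SE 0.09, adjusted p 4.38e-05) and at 24 h -0.78 (SE 0.08, adjusted p 1.81e-05). The gene shares 9.32% of its 31-base words with its antisense gene ARHGEF17-AS1, and reads of the pair cannot be told apart since the strand setting of the counting is not stated. DLC1 was at 19.6, 27.2 and 14.2 CPM in control 0 h, 6.75, 6.46 and 3.92 CPM at 3 h, 5.44, 6.05 and 2.82 CPM at 6 h and 4.29 and 5.04 CPM at 12 h, then 12.8, 3.41 and 8.05 CPM at 24 h against 22.3 and 23.2 CPM. All drug libraries were below all controls, though control 0 h itself spread widely. DLC1 had log2 fold changes of -1.83 (SE 0.40, adjusted p 0.00326) at 3 h and -2.09 (SE 0.41, adjusted p 0.00105) at 6 h. At 12 h DLC1 gave -2.12 (SE 0.48, adjusted p 0.00372) and at 24 h -1.50 (SE 0.42, adjusted p 0.0122). The call at 24 h was lost without control 24 h replicate 1 (-1.53, adjusted p 0.0543) or control 24 h replicate 2 (-1.47, adjusted p 0.0519) or with the length offset or on the TPM scale (adjusted p 0.0828 to 0.1). The length offset takes into account the mean length of the transcripts used in each library, and on the TPM scale limma-trend was run on log2(TPM + 1) and log2(TPM + 0.1).

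A further 3 targets were first called lower at 6 h or 24 h. CRIM1, a membrane protein that binds bone morphogenetic proteins, was at 103, 103 and 104 CPM in control 0 h, 89.4, 89.1 and 74.8 CPM at 3 h, 66.9, 71.4 and 66.8 CPM at 6 h and 37.5 and 75.7 CPM at 12 h. At 24 h it was at 46.8, 27.5 and 36.6 CPM against 106 and 119.6 CPM, all drug libraries below all controls. CRIM1 had log2 fold changes of -0.59 (SE 0.21, adjusted p 0.0317) at 6 h, -0.86 (SE 0.24, adjusted p 0.012) at 12 h and -1.61 (SE 0.23, adjusted p 0.000123) at 24 h, and the call at 3 h was not made. The 6 h call was lost when any 1 of the 6 libraries compared was left out, that is control 0 h replicate 1, 2 or 3 or latrunculin B 6 h replicate 1, 2 or 3 (adjusted p 0.0557 to 0.0757), and also with the length offset or on the TPM scale (adjusted p 0.0588 to 0.0678). The 12 h call was lost without latrunculin B 12 h replicate 1 (-0.45, adjusted p 0.0898) or in a fit of only the compared groups (adjusted p 0.0821). Without replicate 2 of 12 h the value was -1.46 (adjusted p 0.000251). MYOF, a ferlin that acts in membrane repair and fusion, was at 91.3, 82.4 and 90.6 CPM in control 0 h, 55.9, 54.3 and 42.6 CPM at 6 h and 36.4 and 71.6 CPM at 12 h. The 24 h drug libraries held 59, 35.3 and 42.7 CPM of MYOF against 107 and 109 CPM. The drug groups of 6, 12 and 24 h lay below their controls without overlap. For MYOF the log2 fold changes were -0.79 (SE 0.22, adjusted p 0.0099) at 6 h, -0.70 (SE 0.25, adjusted p 0.0404) at 12 h and -1.24 (SE 0.24, adjusted p 0.00108) at 24 h. At 12 h the MYOF call was lost without control 0 h replicate 1, 2 or 3 or latrunculin B 12 h replicate 1 (adjusted p 0.0571 to 0.329) or without scaling, with the length offset, in a fit of only the compared groups or on the TPM scale (adjusted p 0.056 to 0.123). Without replicate 1 of 12 h the value was -0.30 (adjusted p 0.329) and without replicate 2 it was -1.28 (adjusted p 0.00171). RBMS3, an RNA-binding protein, was called at 24 h, at 1.43, 0.921 and 1.16 CPM against 3.12 and 2.76 CPM with no overlap. Its libraries of 3 h and 6 h also lay below control 0 h, without a call. Its log2 fold change was -1.32 (SE 0.35, adjusted p 0.00894) at 24 h. It was lost without control 24 h replicate 1 (-1.23, adjusted p 0.0634) or with limma-trend on log2(TPM + 0.1) (adjusted p 0.0531).

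Other targets of the list rose. IGFBP3 (chr7:45912245-45921874, minus strand), a secreted binding protein of insulin-like growth factors, was at 504, 414 and 419.5 CPM in control 0 h, 761, 765 and 963 CPM at 3 h, 963, 1072 and 1248 CPM at 6 h and 946 and 847 CPM at 12 h. At 24 h it was at 703, 762 and 851 CPM, against 326 and 332 CPM in control 24 h. The lowest drug library was above the highest control library. IGFBP3 had log2 fold changes of 0.90 (SE 0.12, adjusted p 7.60e-05) at 3 h and 1.296 (SE 0.12, adjusted p 2.41e-06) at 6 h. At 12 h IGFBP3 gave 1.01 (SE 0.13, adjusted p 6.22e-05) and at 24 h 1.23 (SE 0.14, adjusted p 1.99e-05), and its level was higher 1.86-fold at 3 h, 2.46-fold at 6 h, 2.01-fold at 12 h and 2.35-fold at 24 h. With control 0 h as the reference in place of control 24 h the 24 h value was 0.79 (adjusted p 0.000148).

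F3 and GADD45B rose early and were not called at 24 h. With no control at 3, 6 or 12 h, a passing change with time or handling cannot be told apart from the drug. F3 (chr1:94529173-94541759, minus strand), tissue factor, which starts blood clotting, was at 121, 134 and 136 CPM in control 0 h, 297, 261 and 313 CPM at 3 h and 265, 283 and 272 CPM at 6 h, with no overlap. At 12 h the 2 libraries were at 253 and 129 CPM, the second within the range of control 0 h, and at 24 h the level was 146, 149.7 and 177 CPM against 134 and 129.8 CPM, not called (adjusted p 0.307). F3 had log2 fold changes of 1.15 (SE 0.17, adjusted p 0.000215) at 3 h, 1.07 (SE 0.17, adjusted p 0.000261) at 6 h and 0.55 (SE 0.19, adjusted p 0.0379) at 12 h. At 12 h the F3 call was lost without control 0 h replicate 1, 2 or 3 or latrunculin B 12 h replicate 1 (adjusted p 0.0661 to 0.934), with control 24 h as the reference (0.54, adjusted p 0.0658) or in a fit of only the compared groups or on the TPM scale (adjusted p 0.0519 to 0.205). Its sign rests on replicate 1, since without it the value was -0.02 (adjusted p 0.934) and without replicate 2 it was 0.95 (adjusted p 3.33e-05). GADD45B (chr19:2476122-2478259, plus strand), a stress-induced gene that acts in growth arrest and DNA repair, was at 17.3, 16.9 and 16.6 CPM in control 0 h, 38.6, 40.8 and 52 CPM at 3 h and 39.1, 42.1 and 43.8 CPM at 6 h, all drug libraries above all controls. For GADD45B the log2 fold changes were 1.37 (SE 0.22, adjusted p 0.00033) at 3 h and 1.297 (SE 0.22, adjusted p 0.000334) at 6 h. At 12 h its libraries were at 24.8 and 10.1 CPM, one above and one below control 0 h, and at 24 h at 12.6, 12.6 and 13 CPM against 15.5 and 15.8 CPM, without a call at either time.

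The remaining rises were first called at 6 h or 24 h. FJX1, the homologue of a fly gene of the Fat and Dachsous pathway, was at 9.37, 10.1 and 9.08 CPM in control 0 h, 16.6, 14.9 and 17.8 CPM at 6 h and 12.8 and 13.9 CPM at 12 h. Control 24 h held 7.66 and 10.7 CPM of FJX1 and the 24 h drug group 15.4, 11.3 and 14.8 CPM. The drug groups of 6, 12 and 24 h lay above their controls. The 3 h libraries, not called, all lay below control 0 h. FJX1 had log2 fold changes of 0.79 (SE 0.13, adjusted p 0.000324) at 6 h, 0.49 (SE 0.15, adjusted p 0.0191) at 12 h and 0.58 (SE 0.15, adjusted p 0.00678) at 24 h. Its 12 h call was lost without control 0 h replicate 3 (0.46, adjusted p 0.0579) or latrunculin B 12 h replicate 2 (0.43, adjusted p 0.104). Its 24 h call was lost without control 24 h replicate 1 (0.36, adjusted p 0.119) or in a fit of only the compared groups (adjusted p 0.0605). ASAP1, an Arf GTPase-activating protein of focal adhesions, was at 64.8, 62.1 and 62 CPM in control 0 h, 99, 107 and 96.6 CPM at 6 h and 67.4 and 86.9 CPM at 12 h, without overlap. After 24 h ASAP1 was at 66.4, 65.4 and 68.7 CPM against 61.7 and 62.3 CPM, not called. ASAP1 had log2 fold changes of 0.68 (SE 0.08, adjusted p 1.32e-05) at 6 h and 0.29 (SE 0.08, adjusted p 0.0158) at 12 h. At 12 h the ASAP1 call was lost without control 0 h replicate 2 (0.27, adjusted p 0.0585) or latrunculin B 12 h replicate 2 (0.10, adjusted p 0.339) or with the length offset, in a fit of only the compared groups or on the TPM scale (adjusted p 0.0642 to 0.16). Without replicate 1 of 12 h the value was 0.46 (adjusted p 0.000215). NT5E, the ecto-nucleotidase CD73, was called at 24 h, at 5.46, 8.66 and 6.29 CPM against 3.29 and 4.67 CPM, all above. Its libraries of 6 h and 12 h also lay above control 0 h, without a call. Its log2 fold change was 0.77 (SE 0.27, adjusted p 0.035) at 24 h. It was lost without control 24 h replicate 1 (0.54, adjusted p 0.277), latrunculin B 24 h replicate 2 (0.56, adjusted p 0.128) or latrunculin B 24 h replicate 3 (0.83, adjusted p 0.0515) or with the replicate number as a block or in a fit of only the compared groups (adjusted p 0.0531 and 0.0585). AXL, a receptor tyrosine kinase, was low, at 1.79 to 7.44 CPM over the 16 libraries, and was not called with both 12 h libraries.

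**Figure D2:**
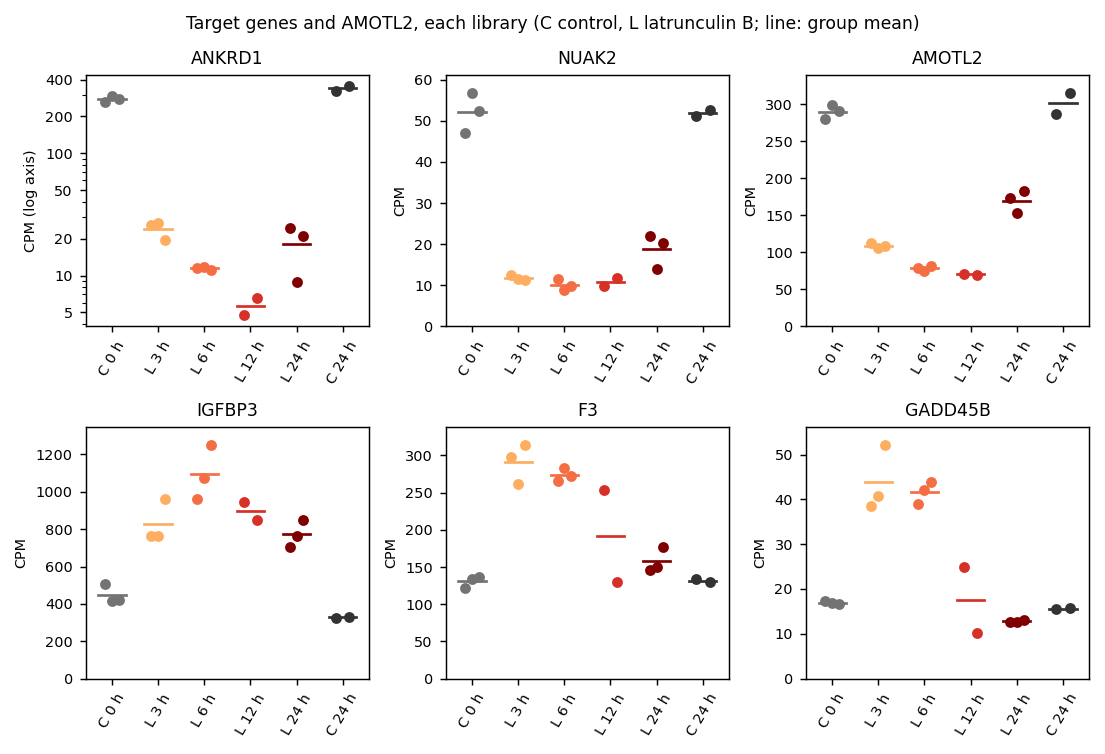
CPM (vertical axis, from 0 except for ANKRD1, which is on a log axis) of 5 target genes and the pathway part AMOTL2 in each library (points), by group on the horizontal axis, with the group mean as a line. ANKRD1, NUAK2 and AMOTL2 are lower in every drug library than in every control library, IGFBP3 is higher, and the 2 libraries of 12 h differ for F3 and GADD45B.

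The co-activators themselves moved in opposite directions. YAP1 (chr11:102110447-102233424, plus strand) was at 224, 206 and 206 CPM in control 0 h, 248, 237 and 229 CPM at 3 h, 306, 317 and 316 CPM at 6 h and 294 and 257 CPM at 12 h, and each of these drug groups was above control 0 h. At 24 h it was at 221, 218 and 226 CPM against 214 and 216 CPM and was not called (adjusted p 0.576). For YAP1 the log2 fold changes were 0.17 (SE 0.05, adjusted p 0.0265) at 3 h, 0.56 (SE 0.05, adjusted p 3.18e-06) at 6 h and 0.38 (SE 0.06, adjusted p 0.000277) at 12 h. The call at 3 h was lost without control 0 h replicate 2 or 3 or latrunculin B 3 h replicate 1 or 2 (adjusted p 0.091 to 0.166), with control 24 h as the reference (0.15, adjusted p 0.0703) or without scaling, without the filter or on the TPM scale (adjusted p 0.0737 to 0.159). WWTR1 (chr3:149517235-149736714, minus strand) was at 148, 139.5 and 146 CPM in control 0 h, 125, 131 and 124 CPM at 3 h, 92.3, 94.5 and 98.7 CPM at 6 h and 77.5 and 88 CPM at 12 h. At 24 h it was at 96.2, 80.8 and 95.5 CPM against 130.1 and 138 CPM, so every drug group lay below its control. WWTR1 had log2 fold changes of -0.19 (SE 0.07, adjusted p 0.0406) at 3 h and -0.60 (SE 0.07, adjusted p 1.16e-05) at 6 h. At 12 h WWTR1 gave -0.80 (SE 0.08, adjusted p 5.51e-06) and at 24 h -0.56 (SE 0.07, adjusted p 7.14e-05). The call at 3 h was lost without control 0 h replicate 1 or 3 or latrunculin B 3 h replicate 1 or 3 (adjusted p 0.0746 to 0.109), with control 24 h as the reference (-0.08, adjusted p 0.443) or with the length offset, with the replicate number as a block or on the TPM scale (adjusted p 0.0616 to 0.107). YAP1 shares 8.94% of its 31-base words with another annotated gene, and WWTR1 shares 8.32% with its antisense gene WWTR1-AS1. Compared per transcript length, in TPM (with an equal sum in each library), control 0 h held 84.6 ± 5.3 TPM of YAP1 and 55.2 ± 1.35 TPM of WWTR1 (SD, n = 3).

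Of the 4 TEAD factors, 3 fell and TEAD2 rose from 6 h on. In control 0 h the TPM levels were 59.5 ± 1.3 for TEAD2, 33.8 ± 2.24 for TEAD1, 28.8 ± 1.71 for TEAD3 and 7.91 ± 0.194 for TEAD4 (SD, n = 3), so TEAD2 was the most and TEAD4 the least abundant. TEAD1 was at 156, 151 and 159 CPM in control 0 h, 84.9, 84.5 and 79.7 CPM at 6 h and 87.7 and 126 CPM at 12 h. The 24 h drug libraries held 123, 103 and 114 CPM of TEAD1 against 167 and 174 CPM, with every drug library below every control. TEAD1 had log2 fold changes of -0.90 (SE 0.11, adjusted p 2.82e-05) at 6 h, -0.54 (SE 0.12, adjusted p 0.0045) at 12 h and -0.59 (SE 0.12, adjusted p 0.00167) at 24 h, and at 12 h the value was -0.82 (adjusted p 0.000142) without replicate 2 and -0.31 (adjusted p 0.0388) without replicate 1. The 12 h call was lost in a fit of only the compared groups (adjusted p 0.0589). TEAD2 was at 81.9, 86.4 and 84.2 CPM in control 0 h, 99.2, 92 and 90 CPM at 6 h and 112 and 109 CPM at 12 h. Control 24 h held 89 and 87.2 CPM of TEAD2 and the 24 h drug group 104, 99.7 and 104 CPM, above the control at 6, 12 and 24 h. At 3 h TEAD2 was not called (-0.11, adjusted p 0.152). Without latrunculin B 3 h replicate 2 it was called lower at 3 h (-0.19, adjusted p 0.0303). For TEAD2 the log2 fold changes were 0.16 (SE 0.06, adjusted p 0.0415) at 6 h, 0.39 (SE 0.06, adjusted p 0.000409) at 12 h and 0.22 (SE 0.06, adjusted p 0.0149) at 24 h. The 6 h call was lost without control 0 h replicate 1, 2 or 3 or latrunculin B 6 h replicate 1, 2 or 3 (adjusted p 0.067 to 0.26), with control 24 h as the reference (0.09, adjusted p 0.289) or without scaling, without the filter, with a minimum mean of 50 counts, with the length offset or on the TPM scale (adjusted p 0.0648 to 0.699). The TEAD2 call at 24 h was lost without control 24 h replicate 1 (0.23, adjusted p 0.0659) or control 24 h replicate 2 (0.20, adjusted p 0.0868) or with the length offset or on the TPM scale (adjusted p 0.074 to 0.102). The gene shares 8.43% of its 31-base words with CD37.

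TEAD3 and TEAD4 fell at every time. TEAD3 was at 58.3, 66.3 and 57.7 CPM in control 0 h and 51.8, 51.2 and 42.8 CPM at 3 h, and at 24 h at 45, 38.2 and 41.3 CPM against 66 and 67.9 CPM, with no overlap. TEAD3 had log2 fold changes of -0.32 (SE 0.10, adjusted p 0.0201) at 3 h and -0.49 (SE 0.10, adjusted p 0.00107) at 6 h. At 12 h TEAD3 gave -0.50 (SE 0.11, adjusted p 0.00306) and at 24 h -0.69 (SE 0.11, adjusted p 0.000224). The 3 h call of TEAD3 was lost without control 0 h replicate 2 (-0.27, adjusted p 0.0757) or latrunculin B 3 h replicate 3 (-0.26, adjusted p 0.0741). TEAD4 was at 8.85, 8.91 and 9.08 CPM in control 0 h, 5.5, 5.38 and 5.35 CPM at 3 h, 4.34, 3.97 and 4.73 CPM at 6 h and 3.46 and 3.55 CPM at 12 h. After 24 h TEAD4 was at 4.16, 4.48 and 4.76 CPM against 8.24 and 8.42 CPM. The libraries of a group lay close together and no drug library came near a control. TEAD4 had log2 fold changes of -0.73 (SE 0.09, adjusted p 5.33e-05) at 3 h and -1.04 (SE 0.09, adjusted p 1.92e-06) at 6 h. At 12 h TEAD4 gave -1.35 (SE 0.11, adjusted p 1.45e-06) and at 24 h -0.90 (SE 0.10, adjusted p 2.13e-05).

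**Figure D3:**
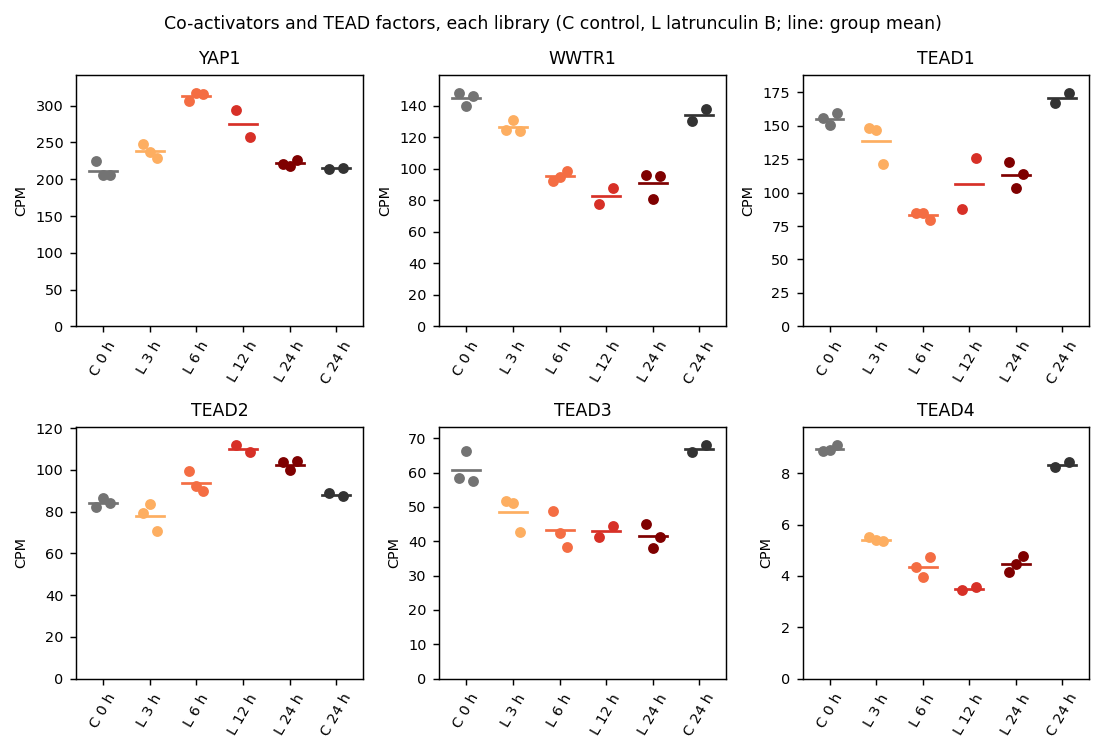
CPM (vertical axes, from 0) of YAP1, WWTR1 and TEAD1 to TEAD4 in each library (points), by group on the horizontal axis (C control, L latrunculin B), with the group mean as a line. YAP1 is highest at 6 h and back near the controls at 24 h, WWTR1, TEAD1, TEAD3 and TEAD4 are below their controls at 6, 12 and 24 h, and TEAD2 is above its control at these times.

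The VGLL proteins bind TEADs in place of YAP1, and VGLL4 is known as a competitor that represses. VGLL4 was at 128, 119 and 128 CPM in control 0 h and 111 and 101 CPM at 12 h, the time of its only call, at -0.24 (SE 0.05, adjusted p 0.00367) at 12 h, which was lost in a fit of only the compared groups (adjusted p 0.0632). The shares of its transcripts differed as well, as a description with no test: VGLL4-211 held 63.0% of the gene's TPM in control 0 h (61.1% to 66.4% over the libraries). Under the drug it held 70.8% at 3 h (67% to 73.5%), 75.8% at 6 h (73.3% to 78.9%), 82.9% at 12 h (81.4% to 84.5%) and 75.7% at 24 h (73.9% to 79%), against 67.0% in control 24 h (64.6% to 69.4%). The drug libraries lay above their own control each time, and 21.5% of the gene's 31-base words are shared with ATG7. VGLL3 was at 9.72, 10.4 and 11.1 CPM in control 0 h, 4.16, 4.44 and 2.86 CPM at 3 h and 2.7, 3.06 and 2.86 CPM at 6 h. The 24 h drug libraries held 4.81, 2 and 3.13 CPM of VGLL3 against 12.5 and 12.3 CPM, below the controls throughout. For VGLL3 the log2 fold changes were -1.44 (SE 0.35, adjusted p 0.00671) at 3 h, -1.85 (SE 0.36, adjusted p 0.00106) at 6 h and -1.91 (SE 0.38, adjusted p 0.00146) at 24 h. At 12 h its libraries were at 2.41 and 7.98 CPM and it was not called (adjusted p 0.0677), but without replicate 2 it was called lower (-2.11, adjusted p 0.00133). VGLL1 had few reads, with 22, 21 and 13 reads in control 0 h, 5, 1 and 0 reads at 6 h, 13, 2 and 4 reads at 24 h and 37 and 49 reads in control 24 h. It was called lower at 6 h (adjusted p 0.0183) and 24 h (adjusted p 0.0205), where the groups did not overlap. The 6 h call was lost without latrunculin B 6 h replicate 2 or 3 (adjusted p 0.063 to 0.066). The 24 h call was lost without control 24 h replicate 1 or 2 or latrunculin B 24 h replicate 2 or 3 (adjusted p 0.0622 to 0.0812), with control 0 h as the reference (-1.74, adjusted p 0.103) or with the replicate number as a block (adjusted p 0.0534).

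In the core cassette the paired kinases moved apart, LATS1 and LATS2 at 3 h and 6 h, and STK3 and STK4 at 6, 12 and 24 h. LATS2 (chr13:20973036-21061586, minus strand), which is itself a known YAP target, was at 60.7, 58.2 and 57.6 CPM in control 0 h, 32.6, 32 and 26.8 CPM at 3 h, 25.7, 26.6 and 26.2 CPM at 6 h and 18.8 and 22 CPM at 12 h. Control 24 h held 54.6 and 63 CPM of LATS2 and the 24 h drug group 46.3, 32.8 and 39.2 CPM. Every drug library was below every control. LATS2 had log2 fold changes of -0.95 (SE 0.11, adjusted p 2.96e-05) at 3 h and -1.17 (SE 0.11, adjusted p 3.78e-06) at 6 h. At 12 h LATS2 gave -1.53 (SE 0.13, adjusted p 2.57e-06) and at 24 h -0.58 (SE 0.12, adjusted p 0.00198). LATS1 was at 50.4, 48.9 and 52.1 CPM in control 0 h, 63.8, 66.9 and 62.4 CPM at 3 h and 55.3, 59.9 and 55.8 CPM at 6 h, above the control both times, with log2 fold changes of 0.35 (SE 0.04, adjusted p 4.03e-05) at 3 h and 0.18 (SE 0.04, adjusted p 0.00476) at 6 h. The 6 h call was lost without latrunculin B 6 h replicate 2 (0.12, adjusted p 0.0515), with control 24 h as the reference (0.04, adjusted p 0.515) or without scaling or on the TPM scale (adjusted p 0.142 to 0.312). STK3 was at 30.2, 27.7 and 29 CPM in control 0 h, 20.6, 20.8 and 22 CPM at 6 h and 18.6 and 20.8 CPM at 12 h. After 24 h STK3 was at 21.3, 24.5 and 20.6 CPM against 29.1 and 28.5 CPM, all below. STK3 had log2 fold changes of -0.45 (SE 0.07, adjusted p 0.00016) at 6 h, -0.55 (SE 0.08, adjusted p 0.000143) at 12 h and -0.38 (SE 0.08, adjusted p 0.00144) at 24 h. STK4 was at 43.6, 41.7 and 45.3 CPM in control 0 h and 51.5, 53.2 and 55.1 CPM at 6 h. The 24 h drug libraries held 56.2, 53.4 and 53.1 CPM of STK4 against 40.3 and 42.9 CPM, all above. For STK4 the log2 fold changes were 0.29 (SE 0.05, adjusted p 0.000305) at 6 h, 0.21 (SE 0.05, adjusted p 0.00787) at 12 h and 0.38 (SE 0.05, adjusted p 0.000121) at 24 h.

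The 3 calls of STK4 against controls were lost when transcript length was taken into account. The mean length of the STK4 transcripts used, as salmon estimates it, was 4752.3 bases in control 0 h, 5062.2 at 6 h and 5223.8 at 24 h, and 4650.9 in control 24 h, and STK4-202 held 70.2% of the gene's TPM in control 0 h, 85.1% at 24 h and 76.3% in control 24 h. Its 6 h call was lost with the length offset or on the TPM scale (adjusted p 0.115 to 0.533). The 12 h one was lost without latrunculin B 12 h replicate 2 (0.15, adjusted p 0.0895) or with the length offset, in a fit of only the compared groups or on the TPM scale (adjusted p 0.111 to 0.367) and the 24 h one with the length offset or on the TPM scale (adjusted p 0.121 to 0.258). SAV1, the scaffold of STK3 and STK4, was at 30.4 to 35.4 CPM over all libraries and not called at any time, and 31.2% of its 31-base words are shared with ATL1.

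The co-factors of LATS were called higher at 3 h, and MOB1B also at 6 h. MOB1B was at 99.96, 98 and 104 CPM in control 0 h, 149, 145 and 135 CPM at 3 h and 142, 147 and 149.8 CPM at 6 h, with no overlap. Control 24 h held 110.2 and 111 CPM of MOB1B and the 24 h drug group 98.9, 94.9 and 101 CPM. MOB1B had log2 fold changes of 0.50 (SE 0.04, adjusted p 2.93e-06) at 3 h, 0.54 (SE 0.04, adjusted p 1.03e-06) at 6 h and -0.17 (SE 0.05, adjusted p 0.0146) at 24 h. The 24 h value was lost without control 24 h replicate 1 (-0.17, adjusted p 0.0722), control 24 h replicate 2 (-0.17, adjusted p 0.0698) or latrunculin B 24 h replicate 2 (-0.14, adjusted p 0.0527), with control 0 h as the reference (-0.04, adjusted p 0.541) or with the length offset or on the TPM scale (adjusted p 0.317 to 0.363). MOB1A was at 176, 165 and 176 CPM in control 0 h, 197, 206 and 201 CPM at 3 h and 164 and 143 CPM at 12 h, above and then below the control. At 6 h and 24 h its libraries also lay above their controls, without a call. MOB1A had log2 fold changes of 0.22 (SE 0.05, adjusted p 0.0038) at 3 h and -0.17 (SE 0.06, adjusted p 0.0318) at 12 h. At 12 h the MOB1A call was lost without control 0 h replicate 1 (-0.15, adjusted p 0.0811), control 0 h replicate 3 (-0.15, adjusted p 0.0898) or latrunculin B 12 h replicate 2 (-0.07, adjusted p 0.345) or without the filter, with the length offset, with the replicate number as a block, in a fit of only the compared groups or on the TPM scale (adjusted p 0.0583 to 0.172). Without replicate 1 of 12 h the value was -0.27 (adjusted p 0.00176). Its 3 h call was lost with the length offset or on the TPM scale (adjusted p 0.0544 to 0.255).

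Of the kinases upstream, TAOK1, which activates STK3 and STK4, was at 204, 186 and 207 CPM in control 0 h, 248.6, 255 and 233 CPM at 3 h and 261, 264 and 248.6 CPM at 6 h, all above the control. For TAOK1 the log2 fold changes were 0.31 (SE 0.06, adjusted p 0.00153) at 3 h and 0.38 (SE 0.06, adjusted p 0.00022) at 6 h. On the TPM scale both were lost, with an adjusted p of 0.0913 and 0.0833 at a pseudocount of 1. MAP4K4, which acts on LATS1 and LATS2 in parallel to STK3 and STK4, was at 224, 219 and 226 CPM in control 0 h, 298, 284 and 287 CPM at 6 h and 247 and 296 CPM at 12 h, again above the control. MAP4K4 had log2 fold changes of 0.38 (SE 0.08, adjusted p 0.00178) at 6 h and 0.28 (SE 0.09, adjusted p 0.0227) at 12 h. The first was lost on the TPM scale (adjusted p 0.0544 and 0.0549). The second was lost without control 0 h replicate 2 (0.26, adjusted p 0.0777) or latrunculin B 12 h replicate 2 (0.15, adjusted p 0.273), with control 24 h as the reference (0.24, adjusted p 0.0705) or with the replicate number as a block, in a fit of only the compared groups or on the TPM scale (adjusted p 0.0514 to 0.121). Neither kinase was called at 24 h.

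The scaffolds that bring LATS to the membrane fell at differing times. NF2 (merlin), a tumour suppressor that recruits LATS, was at 48.2, 48.1 and 47.1 CPM in control 0 h, 37.8, 37 and 39 CPM at 3 h, 36.8, 43.6 and 39.6 CPM at 6 h and 41.5 and 39.1 CPM at 12 h, all below. NF2 had log2 fold changes of -0.33 (SE 0.06, adjusted p 0.00106) at 3 h, -0.26 (SE 0.06, adjusted p 0.00452) at 6 h and -0.25 (SE 0.07, adjusted p 0.0137) at 12 h. The last was lost without latrunculin B 12 h replicate 2 (-0.21, adjusted p 0.0988) or with control 24 h as the reference (-0.17, adjusted p 0.0956). The 6 h value was not called with control 24 h as the reference (-0.18, adjusted p 0.0504). WWC2 was at 201, 219 and 219.7 CPM in control 0 h, 186, 196 and 169 CPM at 3 h, 97, 100.01 and 96.6 CPM at 6 h and 61.3 and 67.5 CPM at 12 h. After 24 h WWC2 was at 109.7, 76.8 and 93.7 CPM against 248 and 256 CPM. No drug library was as high as a control library. For WWC2 the log2 fold changes were -1.12 (SE 0.10, adjusted p 1.84e-06) at 6 h, -1.73 (SE 0.12, adjusted p 4.39e-07) at 12 h and -1.43 (SE 0.11, adjusted p 1.15e-06) at 24 h, and 21.1% of its 31-base words are shared with CLDN22. Its relative WWC1 (KIBRA) was at 221, 221 and 210.4 CPM in control 0 h, 254, 278 and 246 CPM at 3 h and 104 and 70.4 CPM at 12 h. The 24 h drug libraries held 135, 119.8 and 142 CPM of WWC1 against 211 and 217 CPM. It was called at 12 h and 24 h, with log2 fold changes of -1.32 (SE 0.13, adjusted p 5.61e-06) at 12 h and -0.69 (SE 0.12, adjusted p 0.00046) at 24 h. FRMD6 (Willin) was at 87.9, 88.7 and 86 CPM in control 0 h, 91.1, 100.3 and 103 CPM at 6 h and 48.4 and 45.5 CPM at 12 h. Control 24 h held 78.3 and 82.8 CPM of FRMD6 and the 24 h drug group 52.4, 49.2 and 55.1 CPM, so it was above the control at 6 h and below at 12 h and 24 h. FRMD6 had log2 fold changes of 0.17 (SE 0.06, adjusted p 0.031) at 6 h, -0.90 (SE 0.07, adjusted p 8.08e-07) at 12 h and -0.63 (SE 0.06, adjusted p 1.08e-05) at 24 h. The 6 h rise was lost without control 0 h replicate 1, 2 or 3 or latrunculin B 6 h replicate 2 or 3 (adjusted p 0.0618 to 0.204) or without scaling, without the filter, with the length offset, with the replicate number as a block or on the TPM scale (adjusted p 0.0508 to 0.984). On the TPM scale its sign turned (-0.002).

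Of the large cadherins at the top of the pathway, FAT1 and DCHS1 rose at 6 h and 12 h. FAT1, a protocadherin, was at 515, 516 and 544 CPM in control 0 h, 819, 781 and 788 CPM at 6 h and 559 and 927 CPM at 12 h, all above. FAT1 had log2 fold changes of 0.60 (SE 0.13, adjusted p 0.00268) at 6 h and 0.50 (SE 0.15, adjusted p 0.0178) at 12 h. The second was lost without control 0 h replicate 2 (0.48, adjusted p 0.0565) or latrunculin B 12 h replicate 2 (0.09, adjusted p 0.515) or in a fit of only the compared groups (adjusted p 0.15), and it was 0.82 (adjusted p 2.70e-05) without replicate 1 of 12 h. DCHS1, a ligand of FAT4, was at 149.6, 154 and 152 CPM in control 0 h, 219.6, 208 and 192 CPM at 6 h and 247 and 193 CPM at 12 h, all above, with log2 fold changes of 0.44 (SE 0.09, adjusted p 0.00129) at 6 h and 0.53 (SE 0.10, adjusted p 0.000978) at 12 h, the second 0.34 (adjusted p 0.0131) without replicate 1 of 12 h. It shares 7.08% of its 31-base words with its antisense gene. FAT4 itself was low, at 3.5 to 13.4 CPM over the libraries, and was not called with both 12 h libraries. Its drug libraries lay below their controls at 3, 6 and 24 h.

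The angiomotins bind both filamentous actin and YAP1 and keep YAP1 at junctions. AMOTL2 (chr3:134355347-134375479, minus strand), a known YAP target, was at 280.5, 299 and 290.2 CPM in control 0 h, 113, 106 and 108 CPM at 3 h, 78.8, 74.8 and 81.2 CPM at 6 h and 70.9 and 69.4 CPM at 12 h. After 24 h AMOTL2 was at 173, 152 and 182 CPM against 287 and 315 CPM. All drug libraries were below all controls, least so at 24 h. For AMOTL2 the log2 fold changes were -1.41 (SE 0.06, adjusted p 1.35e-08) at 3 h and -1.89 (SE 0.06, adjusted p 2.15e-09) at 6 h. At 12 h AMOTL2 gave -2.05 (SE 0.08, adjusted p 8.40e-09) and at 24 h -0.83 (SE 0.07, adjusted p 2.06e-06), and its level was lower 2.66-fold at 3 h, 3.7-fold at 6 h, 4.13-fold at 12 h and 1.78-fold at 24 h. AMOTL1 was called at 24 h, at 129, 99 and 114 CPM against 170.3 and 181 CPM with no overlap, a log2 fold change of -0.62 (SE 0.11, adjusted p 0.000459) at 24 h. AMOT was at 154, 151 and 163 CPM in control 0 h, 124 and 277 CPM at 12 h and 181, 97 and 127 CPM at 24 h, with the second 12 h library far above the first, and was not called.

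PTPN14, a phosphatase that binds YAP1, and the LIM proteins AJUBA and LIMD1, which inhibit LATS at junctions under tension, fell early. PTPN14 was at 96.1, 96.4 and 105 CPM in control 0 h, 65.1, 69.8 and 52.1 CPM at 3 h, 58.4, 56.7 and 54.4 CPM at 6 h and 51.7 and 84.3 CPM at 12 h, below the control each time. PTPN14 had log2 fold changes of -0.67 (SE 0.16, adjusted p 0.00528) at 3 h, -0.81 (SE 0.16, adjusted p 0.00103) at 6 h and -0.54 (SE 0.18, adjusted p 0.0299) at 12 h. The PTPN14 call at 12 h was lost without control 0 h replicate 3 (-0.50, adjusted p 0.0787) or latrunculin B 12 h replicate 1 (-0.24, adjusted p 0.286) or in a fit of only the compared groups or on the TPM scale (adjusted p 0.0831 to 0.112). Without replicate 2 of 12 h the value was -0.94 (adjusted p 0.00123). At 24 h it was at 97.5, 70.4 and 79.2 CPM against 105 and 113 CPM, not called (adjusted p 0.0739). AJUBA was at 132, 139.7 and 140.0 CPM in control 0 h, 75.9, 65.1 and 65 CPM at 3 h, 68.9, 72.2 and 74.2 CPM at 6 h and 58.8 and 55.2 CPM at 12 h. The 24 h drug libraries held 99.8, 72.8 and 88.9 CPM of AJUBA against 158 and 160.4 CPM, again with no overlap. AJUBA had log2 fold changes of -0.999 (SE 0.09, adjusted p 4.14e-06) at 3 h and -0.94 (SE 0.09, adjusted p 4.69e-06) at 6 h. At 12 h AJUBA gave -1.27 (SE 0.11, adjusted p 2.21e-06) and at 24 h -0.87 (SE 0.10, adjusted p 2.87e-05). LIMD1 was at 53.8, 55.6 and 53.2 CPM in control 0 h, 45.4, 44.2 and 42.4 CPM at 3 h and 44.7, 40.6 and 40.6 CPM at 6 h, below the control both times. For LIMD1 the log2 fold changes were -0.30 (SE 0.05, adjusted p 0.000448) at 3 h and -0.37 (SE 0.05, adjusted p 6.10e-05) at 6 h, and 24.8% of its 31-base words are shared with its antisense gene.

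The median size of the change was larger in the targets than in the parts at each time. Of the 31 parts, 48.4%, 77.4%, 67.7% and 54.8% were called at 3, 6, 12 and 24 h, and of the 14 targets 50%, 78.6%, 71.4% and 71.4%. The median absolute log2 fold change of the parts was 0.25, 0.45, 0.39 and 0.38 at these times. That of the targets was 0.66, 0.93, 0.62 and 1.003, and that of all genes tested 0.22, 0.28, 0.27 and 0.30. The signed medians of the parts were -0.11, -0.26, -0.25 and -0.38, and those of the targets -0.27, -0.58, 0.07 and -0.74. At 12 h the median of the targets lay between GADD45B (0.03) and RBMS3 (0.12), neither of them called. Both genes took opposite signs when 1 or the other library of 12 h was left out, so the sign of that median is not settled. By direction, 5 parts were called higher and 10 lower at 3 h, 10 and 14 at 6 h, 6 and 15 at 12 h and 2 and 15 at 24 h. Of the targets, 3 were higher and 4 lower at 3 h, 5 and 6 at 6 h, 4 and 6 at 12 h and 3 and 7 at 24 h.

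Of the parts, 3 are also known targets: LATS2, AMOTL2 and PTPN14. Without them, 12, 21, 18 and 15 of the other 28 parts were called at 3, 6, 12 and 24 h, with median absolute log2 fold changes of 0.22, 0.41, 0.37 and 0.36. At 3 h this median equals that of all genes to 2 decimals. No test of the difference between the lists was made, since the lists are fixed names and their genes are not replicates.

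**Figure D4:**
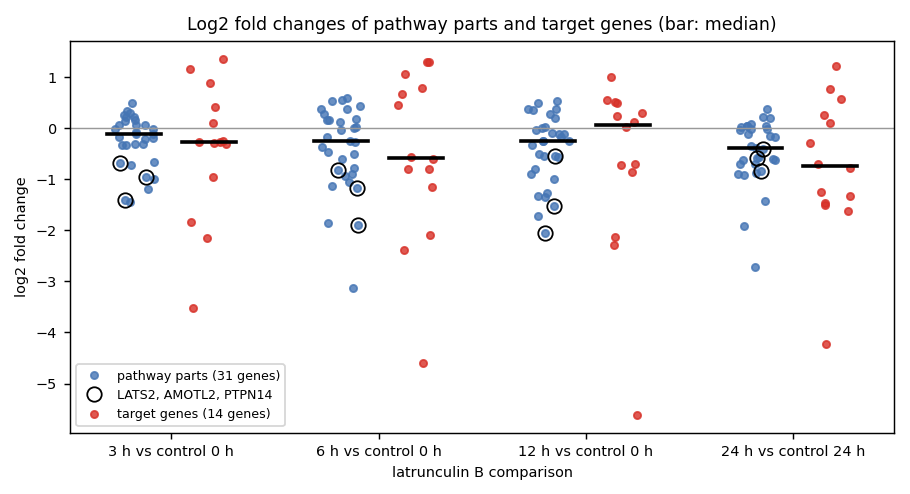
Log2 fold change (vertical axis) of the 31 pathway parts (blue) and the 14 target genes (red) in the 4 drug comparisons (horizontal axis); bars are medians and circles mark LATS2, AMOTL2 and PTPN14. The targets spread from -5.61 to 1.37 over the 4 comparisons, and the median of the parts is between -0.38 and -0.11.

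To follow the genes within the treatment, drug groups were compared with each other. No control enters these comparisons, so changes over the day without the drug are part of them. Between 3 h and 6 h, 17 genes were called, 8 higher and 9 lower at 6 h, where 22.2% of all genes were called. Higher at 6 h were YAP1 (0.39, SE 0.05, adjusted p 0.000223), TEAD2 (0.27, SE 0.06, adjusted p 0.0047), STK4 (0.23, SE 0.05, adjusted p 0.00457) and DCHS1 (0.45, SE 0.09, adjusted p 0.00322). MAP4K4 (0.31, SE 0.08, adjusted p 0.0136), FJX1 (1.096, SE 0.13, adjusted p 0.000103), IGFBP3 (0.40, SE 0.12, adjusted p 0.026) and ASAP1 (0.57, SE 0.08, adjusted p 0.000199) were higher too. The co-activator WWTR1 (-0.41, SE 0.07, adjusted p 0.000832) was lower at 6 h, as were its partners TEAD1 (-0.74, SE 0.11, adjusted p 0.000502) and TEAD4 (-0.32, SE 0.09, adjusted p 0.0272). Kinases and scaffolds lower at 6 h were STK3 (-0.45, SE 0.07, adjusted p 0.000612), LATS1 (-0.18, SE 0.04, adjusted p 0.0101), WWC1 (-0.52, SE 0.11, adjusted p 0.00388) and WWC2 (-0.91, SE 0.10, adjusted p 4.62e-05). AMOTL2 (-0.48, SE 0.06, adjusted p 0.000188) and ANKRD1 (-1.07, SE 0.27, adjusted p 0.0115) fell further from 3 h to 6 h. The call of TEAD4 was lost without latrunculin B 3 h replicate 1, 2 or 3 or latrunculin B 6 h replicate 1 or 2 (adjusted p 0.0592 to 0.112) or with DESeq2, without the filter, with the length offset, in a fit of only the compared groups or on the TPM scale (adjusted p 0.0773 to 0.27). The calls were also lost for MAP4K4 without latrunculin B 3 h replicate 3 (0.28, adjusted p 0.0574) or latrunculin B 6 h replicate 1 (0.29, adjusted p 0.0514) or on the TPM scale (adjusted p 0.108 and 0.11). For IGFBP3 the call was lost without latrunculin B 3 h replicate 1 or 2 or latrunculin B 6 h replicate 2 or 3 (adjusted p 0.0554 to 0.121) or with the length offset or on the TPM scale (adjusted p 0.0511 to 0.0554). STK4 lost its call with the length offset or on the TPM scale (adjusted p 0.36 to 0.563). LATS1 lost its call on the TPM scale (adjusted p 0.101 and 0.105), and ASAP1 likewise on the TPM scale (adjusted p 0.0556 and 0.0579).

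Between 6 h and 24 h, 22 genes were called, 8 higher and 14 lower at 24 h, where 37.9% of all genes were called. The 6 h libraries also enter the calls at 6 h, so their scatter moves both values in opposite directions. The 8 that were higher had all been called lower at 6 h, among them the parts TEAD1 (0.45, SE 0.11, adjusted p 0.00629), LATS2 (0.59, SE 0.11, adjusted p 0.0011) and AMOTL2 (1.11, SE 0.06, adjusted p 1.26e-07). The others were PTPN14 (0.54, SE 0.16, adjusted p 0.0153), AJUBA (0.28, SE 0.09, adjusted p 0.029), LIMD1 (0.16, SE 0.05, adjusted p 0.0248), ARHGEF17 (0.34, SE 0.08, adjusted p 0.00419) and NUAK2 (0.90, SE 0.15, adjusted p 0.00039). ANKRD1 was not among them (0.65, adjusted p 0.0738). Without latrunculin B 24 h replicate 2, ANKRD1 (0.99, adjusted p 0.000195) and DLC1 (1.12, adjusted p 0.0244) were called higher as well. Of the genes lower at 24 h, parts called higher at 6 h were YAP1 (-0.50, SE 0.05, adjusted p 1.21e-05), MOB1B (-0.57, SE 0.04, adjusted p 1.13e-06) and TAOK1 (-0.36, SE 0.06, adjusted p 0.000378). To these came MAP4K4 (-0.25, SE 0.08, adjusted p 0.0233), FRMD6 (-0.91, SE 0.06, adjusted p 2.32e-07), FAT1 (-0.67, SE 0.13, adjusted p 0.00162) and DCHS1 (-0.33, SE 0.09, adjusted p 0.0096). The targets F3 (-0.79, SE 0.17, adjusted p 0.00265), IGFBP3 (-0.50, SE 0.12, adjusted p 0.00416), GADD45B (-1.71, SE 0.22, adjusted p 5.74e-05) and ASAP1 (-0.59, SE 0.08, adjusted p 5.32e-05) came down likewise. The IGFBP3 libraries of control 24 h also lay below those of control 0 h, though without a call. Against its own control IGFBP3 was called higher at both 6 h and 24 h. CRIM1 (-0.89, SE 0.21, adjusted p 0.00471), WWC1 (-0.45, SE 0.11, adjusted p 0.0046) and AMOTL1 (-0.53, SE 0.10, adjusted p 0.000727), none of them called higher at 6 h, were lower at 24 h too. The call of PTPN14 was lost without latrunculin B 6 h replicate 3 (0.52, adjusted p 0.0509) or latrunculin B 24 h replicate 1 (0.40, adjusted p 0.0706). MAP4K4 lost its call without latrunculin B 6 h replicate 1 or 3 or latrunculin B 24 h replicate 2 or 3 (adjusted p 0.0511 to 0.104) or without scaling or on the TPM scale (adjusted p 0.18 to 0.312). The call of AJUBA was lost without latrunculin B 6 h replicate 1 or 2 or latrunculin B 24 h replicate 1 or 3 (adjusted p 0.068 to 0.139) or with the length offset or in a fit of only the compared groups (adjusted p 0.0598 and 0.072). That of LIMD1 was lost without latrunculin B 6 h replicate 2 (0.13, adjusted p 0.101), latrunculin B 6 h replicate 3 (0.13, adjusted p 0.0931) or latrunculin B 24 h replicate 3 (0.14, adjusted p 0.0851) or with the length offset or on the TPM scale (adjusted p 0.424 to 0.742). ARHGEF17 lost its call with the length offset or on the TPM scale (adjusted p 0.472 to 0.788). TAOK1 lost it with the length offset or on the TPM scale (adjusted p 0.0569 to 0.329), and DCHS1 without scaling (adjusted p 0.07). ASAP1 was not called on the TPM scale (adjusted p 0.0557 and 0.0577), nor was WWC1 on the TPM scale (adjusted p 0.108 and 0.111). Without scaling between libraries 13 genes were higher and 12 lower at 24 h.

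At 24 h the summed level of 8 endocrine markers was 112 CPM in replicate 1, 349 in replicate 2 and 315 in replicate 3, against 73.5 to 87.2 CPM in control 24 h and 38.2 to 47.3 CPM in control 0 h. Their part in the 24 h values was not tested. Without replicate 1 of 24 h the 27 calls against control 24 h held and PTPN14 was called too (-0.55, adjusted p 0.0272). The effect at 24 h minus the effect at 3 h, each against its own control, was called in 18 of the 45 genes, 5 higher and 13 lower, where 27.9% of all genes were called.

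The 2 libraries of 12 h disagreed for a subset of the genes. In replicate 2, 7 of the 45 were at least 2-fold higher than in replicate 1: VGLL1 (11.6-fold), AXL (4.15-fold), FAT4 (3.82-fold), VGLL3 (3.32-fold), RBMS3 (3.17-fold), AMOT (2.24-fold) and CRIM1 (2.02-fold). GADD45B was at least 2-fold higher in replicate 1. The summed mesenchymal markers were 159 CPM in replicate 1 and 870 CPM in replicate 2, and all 8 were higher in replicate 2, with COL3A1 at 684 against 101 CPM. Endothelial markers (41.6 against 9.80 CPM), hepatic markers (1436 against 709 CPM) and Schwann and neural crest markers (19.8 against 3.46 CPM, with 4.54 to 11.2 CPM in the other groups) were higher in replicate 2 as well. Their part in these values was not tested. By contrast, the ratio of replicate 2 to replicate 1 was 1.36 for ANKRD1, 1.20 for NUAK2, 1.17 for LATS2, 1.03 for TEAD4 and 0.979 for AMOTL2. Without replicate 2, 29 of the 45 genes were called at 12 h, 6 higher and 23 lower, of which 24 were among the 31 called with both. The other 5 were VGLL3 (-2.11, adjusted p 0.00133), FAT4 (-1.40, adjusted p 0.00439), AXL (-1.14, adjusted p 0.0178), RBMS3 (-0.95, adjusted p 0.0258) and GADD45B (0.55, adjusted p 0.00684). Without replicate 1, 31 were called, 12 higher and 19 lower, of which 27 were among those called with both. The 4 added were AMOT (0.83, adjusted p 0.0166), AXL (0.91, adjusted p 0.0178), RBMS3 (0.71, adjusted p 0.0409) and GADD45B (-0.74, adjusted p 0.00158), so AXL, RBMS3 and GADD45B were called in opposite directions with 1 or the other library.

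**Figure D5:**
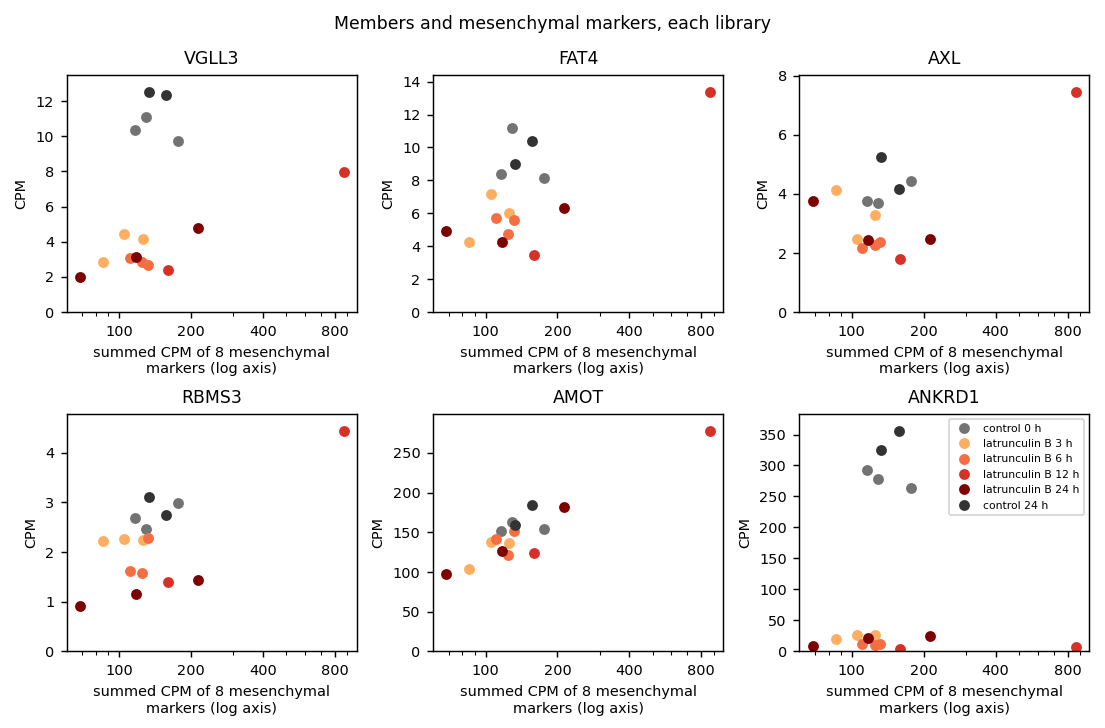
CPM of 6 genes (vertical axes) against the summed CPM of 8 mesenchymal markers (horizontal axes, log scale) in the 16 libraries (points, coloured by group). The library at 870 on the horizontal axis is replicate 2 of 12 h, where VGLL3, FAT4, AXL, RBMS3 and AMOT are above replicate 1 of 12 h at 159, and ANKRD1 is low in both.

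For context, 31 of 33 further pathway genes from another list of names were tested. Of these, 9 were higher and 6 lower at 3 h, 12 and 11 at 6 h, 3 and 13 at 12 h, and 6 and 9 at 24 h. The shares called were 48.4%, 74.2%, 51.6% and 48.4%, against 31.6%, 43.3%, 35.8% and 40.8% of all genes. Their median absolute log2 fold change was 0.18, 0.30, 0.20 and 0.22, and that of all genes 0.22, 0.28, 0.27 and 0.30. The largest change in size was in the cadherin DCHS2 at 3 h (-0.94), 12 h (-1.76) and 24 h (-2.60). At 6 h it was in RASSF4 (-1.32), a member of the Ras-association family. RASSF4 gave -0.76, -0.82 and -1.35 at 3, 12 and 24 h. The highest log2 fold changes of these genes were 0.83, 1.02, 0.88 and 0.98 at 3, 6, 12 and 24 h. Of 14 further YAP and TEAD targets 13 were tested, with 2 higher and 6 lower at 3, 6 and 12 h and 2 and 5 at 24 h. The share of these targets called was 61.5% at 3, 6 and 12 h and 53.8% at 24 h. CCN2, the matricellular protein often read as a YAP target, had log2 fold changes of -4.19, -5.70, -5.73 and -3.02 at these times, and CCN1 -4.00, -4.64, -3.58 and -1.76. MYC, a growth regulator on this list, was higher at all 4 times (2.48, 2.26, 1.40 and 1.44).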

How the data were processed

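RNA selected by its poly(A) tail was sequenced from 16 libraries in 6 groups taken from the labels. Estimated counts, TPM and effective lengths per transcript were deposited by the authors for every library in salmon's format, and the submitters' processing notes name Salmon 1.3.0, DESeq2 and hg38. The study's methods describe STAR gene counts instead, so the upstream settings, strand included, are not certain. The authors' table of log2 fold changes and p-values for 3, 6, 12 and 24 h was not used, nor were its 16 columns of per-sample values.

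Of 177456 transcripts, 165533 were joined to genes through GENCODE 44 (GRCh38) by identifier without version, and 2.92% to 3.17% of the reads of a library were left out as unmatched. Estimated counts were summed per gene and rounded. The test was edgeR's two-sided quasi-likelihood test (version 4.0.16, R 4.3.3), fitted to all 6 groups together after TMM scaling and the filterByExpr filter. Adjusted p-values are Benjamini-Hochberg values over all 16705 genes tested, with calls under 0.05, and every adjusted p given without another tool is edgeR's. CPM used TMM-scaled library sizes. SE is the size of the log2 fold change over the square root of F. Folds are these log2 changes on the linear scale. The script was tested on simulated counts.

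All 45 genes are named, the further pathway genes and targets by their largest changes. The genes and lists were chosen with earlier results of these data known. The share of 31-base words counts those of a gene's transcripts that occur in another gene. Promoter windows came from RefSeq (GRCh38.p14), which held one for 35 of the 45 genes. The alternatives were DESeq2 1.42.0, a length offset, RLE factors or none, a minimum mean of 50 counts or no filter, a block on the replicate number, fits restricted to the compared groups, stricter thresholds, limma-trend 3.58.1 on log2(TPM + 1) and log2(TPM + 0.1), the other control, and leaving out each library. Replicate numbers were not taken as pairs. Precision was set by 23609727 to 33515398 reads per library.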

Additional observations from a re-analysis of the deposited data

Results flagged for a closer look

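Each value here is the log2 fold change at 24 h, taken against control 24 h, minus the one at 3 h, taken against control 0 h, and each passed edgeR's test of that difference over all genes. Among the scaffolds, co-factors and YAP-binding parts these were WWC2 (-1.22, SE 0.15, adjusted p 8.37e-05), WWC1 (-0.95, SE 0.16, adjusted p 0.000807), FRMD6 (-0.77, SE 0.09, adjusted p 4.74e-05), MOB1B (-0.67, SE 0.07, adjusted p 2.29e-05) and AMOTL1 (-0.51, SE 0.14, adjusted p 0.0165). Of these, MOB1B alone was called at 3 h, where it was higher, and all 5 were called lower at 24 h. AMOTL2 differed the other way, at 0.58 (SE 0.09, adjusted p 0.000625), with a smaller fall at 24 h than at 3 h. Those of the kinases were STK3 (-0.37, SE 0.10, adjusted p 0.0151), STK4 (0.32, SE 0.07, adjusted p 0.00537), LATS1 (-0.37, SE 0.06, adjusted p 0.001) and TAOK1 (-0.25, SE 0.09, adjusted p 0.0494). The co-activator WWTR1 and the TEAD factor TEAD2 had -0.37 (SE 0.10, adjusted p 0.0141) and 0.33 (SE 0.09, adjusted p 0.0113). Among targets, GADD45B (-1.66, SE 0.33, adjusted p 0.00222) and F3 (-0.90, SE 0.26, adjusted p 0.0192) had risen at 3 h and were not called at 24 h, CRIM1 (-1.32, SE 0.31, adjusted p 0.00619) and MYOF (-0.99, SE 0.32, adjusted p 0.0349) fell at 24 h without a call at 3 h, FJX1 (0.89, SE 0.20, adjusted p 0.00519) rose at 24 h without a call at 3 h, and NUAK2 (0.68, SE 0.21, adjusted p 0.0298) fell less at 24 h than at 3 h.

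Some of these did not hold under every alternative. The value of WWTR1 was not called without control 24 h replicate 2 (-0.33, adjusted p 0.0637) or without scaling, with the length offset or on the TPM scale (adjusted p 0.0517 to 0.225), nor that of STK3 without control 24 h replicate 1 (-0.36, adjusted p 0.0627) or without scaling, with the length offset or on the TPM scale (adjusted p 0.0835 to 0.572), AMOTL1 without control 24 h replicate 2 (-0.47, adjusted p 0.0665) or without scaling or on the TPM scale (adjusted p 0.0514 to 0.0945) or F3 without control 24 h replicate 1 (-0.87, adjusted p 0.0675). TAOK1 was lost without control 0 h replicate 1 or 2, control 24 h replicate 1 or 2, latrunculin B 3 h replicate 1 or 2 or latrunculin B 24 h replicate 1, 2 or 3 (adjusted p 0.0547 to 0.197) or with RLE factors, without scaling, without the filter, with the length offset, with the replicate number as a block or on the TPM scale (adjusted p 0.0616 to 0.551), NUAK2 without control 0 h replicate 2 or 3, control 24 h replicate 1 or 2, latrunculin B 3 h replicate 2 or 3 or latrunculin B 24 h replicate 1 or 3 (adjusted p 0.0534 to 0.102) or with the replicate number as a block or on the TPM scale (adjusted p 0.0536 to 0.0733), and MYOF without control 0 h replicate 1, 2 or 3, control 24 h replicate 1 or 2, latrunculin B 3 h replicate 1 or 2 or latrunculin B 24 h replicate 2 or 3 (adjusted p 0.0564 to 0.0911) or without scaling, with the length offset, with the replicate number as a block or on the TPM scale (adjusted p 0.0534 to 0.104). LATS1 lost its call on the TPM scale (adjusted p 0.101 and 0.104), STK4 with the length offset or on the TPM scale (adjusted p 0.407 to 0.458) and TEAD2 with the length offset (adjusted p 0.0543). Without replicate 1 of latrunculin B 24 h, TEAD3 (-0.43, adjusted p 0.0473) and ANKRD1 (-0.99, adjusted p 0.0464) were called as well.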

How the results depend on the processing

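Counts of called genes among the 45 were within 1.5 times of those reported, apart from these. With a log2 change of at least 1 also required, 7 genes were called at 3 h, 13 at 6 h, 10 at 12 h, 10 at 24 h, 2 between 3 h and 6 h, 2 between 6 h and 24 h and 3 for the difference between 24 h and 3 h. With limma-trend on either TPM scale 11 were called between 3 h and 6 h and 10 for the difference, and at an adjusted p under 0.01 the difference had 10. Leaving out each library in turn gave 20 to 22 genes at 3 h, 30 to 33 at 6 h, 26 to 31 at 12 h, 20 to 28 at 24 h, 0 between the controls, 15 to 16 between 3 h and 6 h, 19 to 23 between 6 h and 24 h and 13 to 19 for the difference. The sign turned in 2 genes: FRMD6 at 6 h on the log2(TPM + 1) scale (-0.0024) and the log2(TPM + 0.1) scale (-0.0024), and F3 at 12 h without replicate 1 of 12 h (-0.016; without replicate 2 it was 0.95). The cause was not tested.

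The split by direction moved by over 10 percentage points without scaling (13 higher and 12 lower between 6 h and 24 h, 7 and 8 for the difference), where the median of all genes shifted by 0.13 and 0.10 on the log2 scale, with limma-trend on the TPM scale (5 and 14 at 3 h, 9 and 19 at 6 h, 4 and 7 between 3 h and 6 h), with a log2 change of at least 1 (3 and 10 at 6 h, 1 and 9 at 12 h, 1 and 1 between 6 h and 24 h, 0 and 3 for the difference), and at 12 h without its replicate 2 (6 and 23). Of 172 calls of single genes over the comparisons, 42 held under every alternative, 171 under DESeq2, 160 without scaling, 145 with the length offset and 157 in fits restricted to the compared groups.

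With the replicate block 21, 34, 29, 25, 0, 17, 22 and 15 genes were called at 3, 6, 12 and 24 h, between the controls, between 3 h and 6 h, between 6 h and 24 h and for the difference, and 163 of the 172 calls held. Same-numbered libraries did not deviate together: the correlation of their deviations from the group means across genes ran from -0.36 to 0.18, above 0.1 in 9 of 36 pairs, so the numbers were not used as pairs. Depth limited VGLL1, which rested on 0 to 49 reads per library.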
